A study of Mus musculus with 38 samples.

Results

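DHPG_in and REST_PSD95_in are ribosome profiling libraries of whole-neuron ribosomes, and the comparison of the 3 DHPG inputs with the 3 resting PSD95 inputs uses 6 of the 38 samples of the series. The members were chosen by sample title, not by any measured value. All 6 came from primary mouse cortical neurons grown in Neurobasal medium with B27 and Glutamax and transduced with a doxycycline-inducible lentivirus for PSD95-TurboID, a biotin ligase joined to the postsynaptic scaffold PSD95. An input is a portion of the monosome fraction taken before the streptavidin pulldown, so it reports translation in every cell of the dish and in every compartment of the neuron, not in dendrites alone. Each library pooled several dishes from embryonic CD-1 cortex. Resting cultures received cycloheximide for 2 min and biotin for 30 min. DHPG cultures received the same agents and in addition tetrodotoxin (a sodium channel blocker) and DL-AP5 (an NMDA receptor antagonist) for 2 h, and 100 µM DHPG for 10 min. The study's methods place washes and a short time in plain medium between the blockers and DHPG. The biotin time here is that of the labels, and the study's methods give a shorter one after DHPG. A silencing step is not named in the labels of the resting inputs, so the blockers and the agonist cannot be told apart here. The file headers also place the alignment files of the 3 DHPG inputs in 1 folder, together with the inputs of an eIF4G2 knockdown experiment, and those of the 3 resting inputs in 3 other folders. No folder holds both groups, so treatment and experiment cannot be told apart in any value below.

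DHPG is an agonist of the group I metabotropic glutamate receptors. These receptors couple through Gq proteins to phospholipase C, calcium release from internal stores, protein kinase C and the ERK pathway, and in hippocampal and cortical neurons their activation leads to a form of long-term depression that needs translation of existing mRNAs, Arc, Map1b and the phosphatase STEP among them. Neuronal activity also drives transcription of immediate early genes, whose mRNAs are short-lived, followed by delayed genes that encode secreted peptides and synaptic organizers. Ribosome footprints over coding sequence (CDS) count the ribosomes on a gene and change with its mRNA level as well as with its translation.

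Total deposited counts ran from 13095546 to 16036620 in the DHPG inputs and from 10912541 to 30481462 in the resting inputs, and 3848663 to 13028048 of them fell in the CDS of 1 transcript per gene. Pairs of DHPG inputs differed by a chi-square of 1.48 to 1.90 per gene, where 1 would be counting noise alone, and pairs of resting inputs by 8.61 to 17.5. The DHPG libraries were thus closer to each other than the resting libraries were, and nothing in the labels says that they came from separate cultures, so the p-values below measure only the spread between these samples, which may be technical. Levels are given in CPM, the count relative to the library size after trimmed mean scaling, for replicates 1, 2 and 3 in that order. A change is the log2 difference, DHPG minus rest, with its standard error from edgeR's quasi-likelihood fit (n = 3 per group), and a gene is called at a Benjamini-Hochberg adjusted p of 0.05 or less over all 12231 genes tested. Of these genes, 2277 rose (18.6%) and 2417 fell (19.8%), or 1432 to 1474 and 1475 to 1527 when 1 of the DHPG libraries was left out, and the counts for gene lists are to be read against those shares. In 27.2% of all genes tested the 3 DHPG values lay above the 3 resting values, and in 25.9% they lay below. The median change of all genes tested was -0.01. Dlg4, which encodes PSD95 and is also part of the transduced construct, was at 149.9, 153 and 149 CPM in the DHPG inputs and 124, 149.8 and 188 CPM in the resting inputs, with overlapping groups and a change of -0.02 ± 0.13 (edgeR adjusted p = 0.905). Eif4g2, the target of the knockdown experiment, was untargeted in both groups and read 461, 469 and 472 CPM against 533, 557 and 566 CPM, a change of -0.24 ± 0.07 (edgeR adjusted p = 0.0218) that lost its call when any 1 of the DHPG libraries was left out. The 14 pan-neuronal markers were all measured, and summed to between 13235 and 13465 CPM in the DHPG inputs and between 11352 and 12980 CPM in the resting inputs, on the scale of a fit of all 19 inputs. Any culture that holds neurons would show these genes, and markers of other cell types are given below.

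CDS footprints of most immediate early transcription factors were lower in the DHPG inputs. Of 24 listed, 22 were tested, 15 fell, 2 rose and 5 were not called, and the median change was -0.97. Npas4, a neuron-specific factor that responds to calcium entry, was at 10.4, 8.99 and 8.20 CPM after DHPG and at 60.9, 61.1 and 73.6 CPM at rest. Every DHPG value lay below every resting value, and the change was -2.81 ± 0.16 (edgeR adjusted p = 6.27e-06). Nr4a1, an orphan nuclear receptor, read 8.35, 9.31 and 6.53 CPM against 74.0, 82.7 and 173 CPM and changed by -3.74 ± 0.37, with the groups apart (edgeR adjusted p = 0.000222). Its relatives Nr4a2 (-2.13 ± 0.23) and Nr4a3 (-1.39 ± 0.13) fell too. Fos, the partner of Jun proteins in the AP-1 complex, stood at 43.0, 40.8 and 38.8 CPM in the DHPG inputs. In the resting inputs it stood at 175, 458 and 345 CPM, a wide spread that stayed above the DHPG values throughout, and the change was -2.99 ± 0.34 (edgeR adjusted p = 0.000715). Fosb was 10.2, 12.04 and 11.2 CPM against 29.5, 94.9 and 44.0 CPM and Junb 54.8, 50.4 and 47.4 CPM against 81.3, 114 and 92.4 CPM. Both fell, with changes of -2.32 ± 0.43 and -0.91 ± 0.14 (edgeR adjusted p = 0.0047 and 0.000844), without overlap, and Fosb by -1.69 without resting replicate 2. Egr1, a zinc finger factor, had 92.5, 98.1 and 82.0 CPM against 165, 157 and 271 CPM and a change of -1.11 ± 0.19 (edgeR adjusted p = 0.002). Btg2, an antiproliferative early gene, showed tight values of 11.04, 9.47 and 11.05 CPM and 46.0, 40.0 and 43.5 CPM in the respective groups and changed by -2.04 ± 0.15 (edgeR adjusted p = 1.96e-05).

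A pair of the list went the other way. Egr3, a zinc finger factor of the Egr family, was at 55.1, 62.0 and 52.9 CPM in the DHPG inputs and at 11.4, 12.8 and 13.2 CPM in the resting inputs. It rose in every DHPG library by a similar margin, with a change of 2.20 ± 0.14 (edgeR adjusted p = 1.24e-05), a 4.59-fold difference. Ier5 read 117, 122 and 108 CPM against 55.8, 48.3 and 46.3 CPM and changed by 1.20 ± 0.11 (edgeR adjusted p = 5.67e-05). Ier5l, a relative of Ier5 outside the list, was among the 12 genes that rose with the smallest p. These were taken from called genes whose groups did not overlap, that changed by at least 1 on the log2 scale and averaged at least 10 CPM in the higher group. Ier5l was at 105, 92.0 and 90.6 CPM against 20.7, 22.2 and 20.7 CPM, with a change of 2.17 ± 0.12 (edgeR adjusted p = 5.85e-06). Egr2 (0.58 ± 0.35), Egr4 (0.06 ± 0.27), Atf3 (-0.56 ± 0.39), Klf2 (-0.09 ± 0.53) and Myc (0.27 ± 0.13) were not called, and Fosl1 and Klf4 were too low to test.

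Promoter windows of the list are shown for the motifs that activity-regulated factors bind. Whether these motifs bear on the changes was not tested. Windows of 300 bases around RefSeq start sites (GRCm38.p6) were at hand for 19 of the 24 members, and not for Egr1, Egr3, Fosl1, Ier2 and Myc. The cAMP response element TGACGTCA, which reads the same on both strands and is bound by CREB, stood in 2 of 19 members and in 2.03% of 27025 genes with a window. The CArG box, bound by serum response factor, stood in 1 of 19 members and in 1.81% of all genes. The 4 windows below, with a CArG box at each of 2 Egr2 start sites, are written 5′ to 3′ on the gene's strand with the motif in capitals.
Btg2, chr1:134079303-134079332, minus strand: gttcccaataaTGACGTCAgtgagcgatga
Maff, chr15:79347480-79347509, plus strand: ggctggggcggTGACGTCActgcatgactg
Egr2, chr10:67537484-67537513, plus strand: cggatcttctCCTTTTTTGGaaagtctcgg
Egr2, chr10:67537787-67537816, plus strand: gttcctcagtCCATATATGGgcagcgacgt
Btg2 and Maff both fell, Maff from 8.81, 11.8 and 21.8 CPM at rest to 1.75, 1.12 and 1.00 CPM, and Egr2 was not called. Absence of the letters from the other windows says nothing about binding elsewhere.

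**Figure D1:**
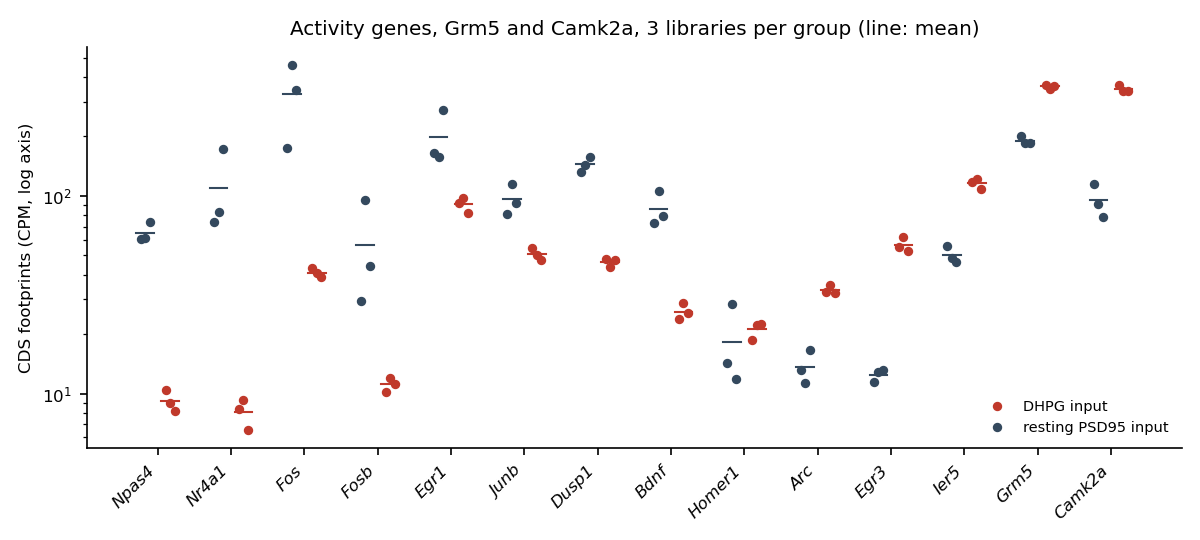
CDS footprints in CPM on a log axis for 14 genes, with 1 point per library (3 resting PSD95 inputs, dark; 3 DHPG inputs, red) and a line at each mean. Npas4, Nr4a1 and Fos lie apart with the DHPG values below, Homer1 overlaps, and Arc, Egr3, Ier5 and Camk2a lie apart with the DHPG values above.

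Effector genes of the early response divided. Of 22 listed, 20 were tested, 9 fell, 3 rose and 8 were not called. Arc, whose protein removes AMPA receptors from synapses, was at 32.5, 35.5 and 32.1 CPM in the DHPG inputs and at 13.1, 11.3 and 16.7 CPM in the resting inputs. The lowest DHPG value was well above the highest resting value, and Arc changed by 1.30 ± 0.17 (edgeR adjusted p = 0.000365), or 2.46-fold. Plk2 (0.51 ± 0.10) and Rheb (0.40 ± 0.13) rose by less. The MAP kinase phosphatase Dusp1 read 47.8, 43.8 and 47.4 CPM against 132, 143 and 158 CPM and changed by -1.63 ± 0.11 (edgeR adjusted p = 1.24e-05). Dusp6, a phosphatase of ERK, read 42.3, 43.5 and 41.0 CPM against 119, 117 and 95.1 CPM and changed by -1.39 ± 0.12 (edgeR adjusted p = 3.36e-05), and Dusp4 by -1.29 ± 0.28. Trib1, a pseudokinase, was at 5.52, 6.90 and 6.53 CPM against 29.3, 40.2 and 39.0 CPM, also with no overlap, and changed by -2.51 ± 0.19 (edgeR adjusted p = 2.56e-05). Spry2, an inhibitor of receptor tyrosine kinase signalling and not in the list, was at 13.3, 12.8 and 10.9 CPM against 65.5, 89.1 and 71.1 CPM (change -2.60 ± 0.16, edgeR adjusted p = 1.24e-05). Homer1, whose short form loosens group I mGluRs from their scaffold, was at 18.7, 22.2 and 22.6 CPM against 14.3, 28.4 and 11.9 CPM. Its groups overlapped and its change of 0.22 ± 0.28 was not called (edgeR adjusted p = 0.569). Resting replicate 2 alone lay above the DHPG values, and without it the change was 0.66 and called (edgeR adjusted p = 0.0172). Counts over 1 transcript do not separate the short form from the long.

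Delayed activity-regulated genes were lower as a group: 15 of 20 fell, 1 rose and 4 were not called, with a median change of -1.31. Bdnf, a secreted growth factor of excitatory neurons, read 23.8, 28.6 and 25.6 CPM after DHPG and 73.2, 106 and 79.2 CPM at rest. The groups lay apart, with a change of -1.73 ± 0.16 (edgeR adjusted p = 5.97e-05). Scg2, a granin of dense-core vesicles, was at 828, 889 and 902 CPM against 1787, 2269 and 2168 CPM and changed by -1.25 ± 0.10 (edgeR adjusted p = 2.56e-05). Chgb, another granin that lay outside the list, was one of the 12 genes that fell with the smallest p, at 443, 455 and 461 CPM against 1205, 1331 and 1287 CPM and a change of -1.49 ± 0.07 (edgeR adjusted p = 3.68e-06). Against the knockdown resting inputs described below the direction of Chgb turned, to 0.19, and it was not called. Nfil3, a transcriptional repressor, had nearly constant values within each group, 55.6, 54.7 and 54.1 CPM against 186, 181 and 175 CPM, and changed by -1.72 ± 0.09 (edgeR adjusted p = 3.68e-06). The neuropeptide gene Adcyap1 was at 10.8, 11.1 and 12.9 CPM against 59.7, 77.6 and 43.5 CPM, a change of -2.39 ± 0.21 (edgeR adjusted p = 4.78e-05). Nptx1, whose protein binds and clusters AMPA receptors, was the member that rose, at 171, 165 and 145 CPM against 65.7, 85.5 and 64.0 CPM and a change of 1.16 ± 0.13 (edgeR adjusted p = 0.000137).

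Inputs depolarized with 55 mM KCl for 1 h were fitted with the other inputs, 19 libraries in all, to show the same genes under another stimulus. The labels give the KCl cultures the same 2 h of blockers as the DHPG cultures, and the KCl and resting PSD95 inputs lay in the same 3 folders, which held no DHPG input. That comparison uses the same 3 resting inputs, so its values are set beside those of DHPG and not tested against them; the KCl values come from the fit of 19 and the DHPG values from the fit of 6. After KCl, 19 of 24 immediate early factors rose and none fell at the same threshold, where 5.83% of all 13463 genes rose and 7.9% fell; their median change was 2.31. Npas4 changed by 2.20 with KCl and -2.81 ± 0.16 with DHPG, Fos by 2.94 and -2.99 ± 0.34, Nr4a1 by 3.30 and -3.74 ± 0.37, Junb by 3.67 and -0.91 ± 0.14. Egr3 changed by 2.31 and 2.20 ± 0.14, and Arc by 3.34 and 1.30 ± 0.17. These last 2 genes were called higher in both comparisons, the first 4 in opposite directions. Summed over the list, immediate early factors reached 1045 to 1182 CPM in the DHPG inputs, 1951 to 2894 CPM in the resting inputs and 9351 to 14265 CPM in the KCl inputs of the same construct.

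Genes of group I mGluR signalling rose more often than they fell. Of 37 listed, 36 were tested, 17 rose, 4 fell and 15 were not called, with a median change of 0.23. Without any 1 of the DHPG libraries 11 rose, where 1432 to 1474 of all genes tested did, against 2277 in the main fit. Grm5, the gene of mGluR5, was at 365, 349 and 359.9 CPM in the DHPG inputs and at 200.3, 186 and 184 CPM in the resting inputs. Both groups were tight and apart, and the change was 0.91 ± 0.08 (edgeR adjusted p = 3.47e-05), or 1.88-fold. It was not called against the Pan resting inputs (0.78, edgeR adjusted p = 0.0517) or the knockdown resting inputs (0.48, edgeR adjusted p = 0.379) described below. Downstream of the receptors, the G protein gene Gnaq changed by 0.48 ± 0.08, the calcium channel of the endoplasmic reticulum Itpr1 by 0.59 ± 0.14, and the protein kinase C gene Prkcb by 0.77 ± 0.09, all called. Prkcb read 164, 169.5 and 154 CPM against 101, 92.9 and 91.4 CPM (edgeR adjusted p = 0.000192). Against the knockdown resting inputs Prkcb changed by -0.03 and was not called. In the ERK branch, Map2k1 (0.76 ± 0.12) and Mapk3 (0.30 ± 0.09) rose. Eef2k, the kinase that phosphorylates elongation factor 2, changed by 1.49 ± 0.22. Members that fell were Plcb3 (-1.81 ± 0.37) and Plcb4 (-0.87 ± 0.19), both phospholipase C isoforms, the scaffold Homer3 (-1.41 ± 0.25) and Rgs4 (-0.93 ± 0.18), which shortens Gq signals. The Shank scaffolds, at 0.09 ± 0.12, 0.07 ± 0.10 and -0.18 ± 0.14 for Shank1, Shank2 and Shank3, were not called.

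Among proteins tied to mGluR-dependent depression, 10 of 17 rose, 3 fell and 4 were not called, and the median change was 0.56. Map1b, a microtubule-associated protein, was at 13280.2, 13204 and 13210.0 CPM against 7714, 8618 and 8198 CPM. The DHPG values barely differed from one another and all exceeded the resting values, with a change of 0.69 ± 0.07 (edgeR adjusted p = 7.06e-05). Map1b was called against the Pan resting inputs (0.52, edgeR adjusted p = 0.0277). It was not called against the knockdown resting inputs described below (0.11, edgeR adjusted p = 0.79). Ptpn5, the gene of STEP, changed by 0.75 ± 0.13. Cyfip2, a partner of FMRP in the WAVE complex, was at 416, 419 and 400.4 CPM against 278, 268 and 270.0 CPM and changed by 0.60 ± 0.07 (edgeR adjusted p = 0.000232). Fmr1 (-0.40 ± 0.11), App (-0.41 ± 0.10) and Adam17 (-1.39 ± 0.24) were the members that fell. Eef2 itself was not called (-0.11 ± 0.07). The AMPA receptor genes Gria1 and Gria2 changed by 0.79 ± 0.10 and 0.56 ± 0.10, both called.

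Postsynaptic density genes mostly rose where they were called: of 33, 11 rose, 1 fell and 21 were not called, with a median of 0.23. In the fit of 19 inputs, 6 were higher against the Pan resting inputs, where 8.26% of all genes were, and 3 against the knockdown resting inputs, where 3.57% were. Camk2a, the alpha subunit of the calcium/calmodulin kinase, was at 364, 338 and 339.7 CPM against 115, 91.2 and 77.9 CPM. No resting library reached a level near the lowest DHPG library, and the change was 1.86 ± 0.13 (edgeR adjusted p = 1.79e-05), or 3.62-fold. Camk2b, the beta subunit, was at 1106, 1053 and 1010.1 CPM against 498, 548 and 480.3 CPM and changed by 1.05 ± 0.08 (edgeR adjusted p = 2.31e-05). Against the knockdown resting inputs Camk2a changed by 0.80 and was called, and Camk2b changed by 0.12 and was not. Grin2b changed by 0.94 ± 0.08, whereas Grin1 (0.03 ± 0.08) and Grin2a (0.37 ± 0.17), other subunits of the NMDA receptor, were not called. On the presynaptic side, 11 of 30 rose, 6 fell and 13 were not called. Without DHPG replicate 1 or 3, 7 rose, where 1460 and 1474 of all genes tested did, against 2277 in the main fit. Rab3a, a vesicle GTPase, was at 758, 765 and 751 CPM against 354, 389 and 378 CPM, a change of 1.02 ± 0.07 (edgeR adjusted p = 1.85e-05). Unc13a, which primes vesicles, was at 446, 426 and 441 CPM against 229, 260.0 and 215 CPM, a change of 0.90 ± 0.09 (edgeR adjusted p = 7.7e-05). The active zone genes Rims1 (-0.81 ± 0.12), Pclo (-0.51 ± 0.08) and Bsn (-0.44 ± 0.11) fell.

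Genes of the integrated stress response, many of them targets of ATF4, were higher: of 30 listed, 28 were tested, 18 rose, 2 fell and 8 were not called, with a median change of 0.58. Atf4 itself read 91.6, 84.6 and 81.9 CPM against 37.2, 84.4 and 78.7 CPM. Resting replicate 1 was low, replicate 2 lay within the DHPG range and replicate 3 just below it, and the change of 0.39 ± 0.27 was not called (edgeR adjusted p = 0.279). Ddit4, an inhibitor of mTORC1, was at 378, 387 and 358 CPM against 125, 123 and 161 CPM and changed by 1.46 ± 0.11 (edgeR adjusted p = 2.31e-05). Asns, the asparagine synthetase, was at 669, 666 and 669.8 CPM against 269.8, 331 and 324 CPM, a change of 1.12 ± 0.09 (edgeR adjusted p = 2.96e-05). Aars, the alanyl-tRNA synthetase, was at 1008, 992 and 1019 CPM against 507, 618 and 584 CPM, a change of 0.82 ± 0.09 (edgeR adjusted p = 0.000108). All 3 had groups that lay apart. Chac1 (1.64 ± 0.22), Trib3 (1.63 ± 0.34) and Sesn2 (1.22 ± 0.21) rose by more than 1 on the log2 scale, and Phgdh, the first enzyme of serine synthesis, fell (-1.36 ± 0.18). With KCl, 13 of 29 members of this list rose and none fell, with a median of 0.71. Heat shock and endoplasmic reticulum chaperones showed no common direction, with 4 of 26 higher, 9 lower and 13 not called. Hsph1, a cytosolic chaperone, was at 468, 502 and 476 CPM against 310.3, 258 and 235 CPM and changed by 0.84 ± 0.10 (edgeR adjusted p = 0.000264). Of the disulfide isomerases in the list, Pdia4 and Pdia3 fell and Pdia6 was not called (0.00 ± 0.07), with Pdia4 at 172, 176 and 188 CPM against 311, 297 and 336 CPM (-0.82 ± 0.08, edgeR adjusted p = 9.39e-05) and Pdia3 at 637, 640.5 and 632 CPM against 950.0, 868 and 1015 CPM (-0.57 ± 0.08, edgeR adjusted p = 0.000486).

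Astrocyte, progenitor and oligodendrocyte lineage markers had larger median differences between the groups than any activity list. All 17 tested astrocyte markers of 18 listed fell, with a median change of -2.25, or 4.77-fold. In bulk libraries, fewer cells of a type and less RNA per cell cannot be told apart. Slc1a3, a glutamate transporter of astrocytes and radial glia, was at 40.7, 45.3 and 45.9 CPM in the DHPG inputs and 318, 234 and 182 CPM in the resting inputs. The resting libraries differed among themselves but none came near the DHPG libraries, and the change was -2.48 ± 0.18 (edgeR adjusted p = 2.14e-05). Sox9, a transcription factor of glia, read 23.0, 17.2 and 19.3 CPM against 129, 132 and 111 CPM (-2.64 ± 0.14, edgeR adjusted p = 5.39e-06), and Bcan, a proteoglycan of glial matrix, 25.2, 25.2 and 23.3 CPM against 215, 276 and 153 CPM (-3.13 ± 0.20, edgeR adjusted p = 1.24e-05). Gfap, the intermediate filament of astrocytes, was at 0.943, 0.161 and 0.670 CPM against 71.2, 12.6 and 10.1 CPM. It was near 0 in every DHPG input, and resting replicate 1 was the highest, for a change of -5.72 ± 1.16 (edgeR adjusted p = 0.0101) that was -4.19 without that library. Mfge8 and Ptprz1, both outside the lists and known from astrocytes and progenitors, were among the 12 genes that fell with the smallest p. Mfge8 was at 39.7, 38.1 and 36.0 CPM against 366, 353 and 318 CPM (-3.19 ± 0.10, edgeR adjusted p = 8.18e-08), and Ptprz1 at 436, 453 and 453 CPM against 1471, 1692 and 1452 CPM (-1.78 ± 0.08, edgeR adjusted p = 3.68e-06).

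Radial glia and progenitor markers fell in 11 of 13, with a median of -2.24. Fabp7, a fatty acid binding protein of radial glia, was at 73.8, 84.1 and 75.5 CPM against 549.5, 431 and 334 CPM (-2.50 ± 0.16, edgeR adjusted p = 1.26e-05), and the receptor Notch1 at 32.5, 28.7 and 28.5 CPM against 162, 178 and 119.9 CPM (-2.36 ± 0.15, edgeR adjusted p = 1.24e-05). Sox2, a stem cell factor, was at 53.2, 50.6 and 48.4 CPM against 110.1, 129.9 and 109.6 CPM (-1.20 ± 0.11, edgeR adjusted p = 5.27e-05). These 3 genes had groups that lay apart. Genes of cell division fell in 19 of 30 and rose in none, with a median of -1.29. Mki67, a proliferation marker, was at 10.2, 7.22 and 9.21 CPM against 64.5, 85.0 and 44.8 CPM, with an edgeR change of -2.86 ± 0.24 (adjusted p = 3.55e-05). Only 10 of 18 markers of the oligodendrocyte lineage could be tested, and 8 of them fell. Olig2, the factor that specifies the lineage, was at 7.00, 5.30 and 5.69 CPM against 52.1, 80.1 and 50.6 CPM (-3.33 ± 0.23, edgeR adjusted p = 1.45e-05), and Olig1 at 19.3, 19.6 and 16.7 CPM against 187, 225 and 103 CPM (-3.21 ± 0.27, edgeR adjusted p = 7.81e-05). The myelin gene Mbp (0.07 ± 0.32) was low in both groups and not called.

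Fibroblast and meningeal markers included the gene with the smallest p of all. Col1a1, a fibrillar collagen, was at 14.7, 13.5 and 14.1 CPM against 236, 278 and 245 CPM, a 17.9-fold difference, and changed by -4.16 ± 0.11 (edgeR adjusted p = 4.89e-08). Col1a2 was at 0.808, 0.642 and 1.34 CPM against 132, 65.4 and 83.8 CPM (-6.66 ± 0.37, edgeR adjusted p = 6.3e-06), and Col5a1 at 8.08, 7.71 and 9.54 CPM against 64.3, 54.3 and 65.8 CPM (-2.86 ± 0.15, edgeR adjusted p = 5.85e-06). Of 10 members tested, 6 fell and the others, Dcn (0.02 ± 0.39) among them, were not called. Few microglial, endothelial and mural markers were measurable, with 3 of 18, 2 of 12 and 4 of 10 tested and 1, 1 and 2 lower. These were the lysosomal gene Cd68 of microglia (-2.36 ± 0.39), the VEGF receptor Kdr (-1.62 ± 0.35), and among mural genes Pdgfrb (-3.15 ± 0.63, or -2.23 without resting replicate 1) and Myl9 (-1.97 ± 0.62). Myl9 overlapped between groups, at 3.77, 5.78 and 6.70 CPM against 37.1, 17.5 and 5.31 CPM, and kept its call in 1 of 6 fits that left out a library, so 1 mural gene was lower in 5 of them and 4 without resting replicate 3. Without resting replicate 2, 2 microglial genes were lower. The defining microglial gene Tmem119 had no count in any of the 6 libraries, and no erythroid gene passed the filter. Cajal-Retzius markers fell in 2 of 4 tested, Ndnf (-1.86 ± 0.17) and Trp73 (-1.51 ± 0.48), while Reln, which interneurons also make, was not called (-0.18 ± 0.14). Trp73 was low, at 1.21, 0.642 and 0.837 CPM against 3.28, 2.26 and 2.02 CPM, and lost its call without any 1 of the DHPG libraries or resting replicate 1 and in the fit of 19 inputs. The list's count was 1 to 3 over fits that left out a library.

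Summed over the astrocyte list, levels on the scale of all 19 inputs were 583 to 618 CPM in the DHPG inputs, 1839 to 3322 CPM in the resting inputs and 1971 to 2000 CPM in the knockdown inputs that share a folder with DHPG. Oligodendrocyte lineage markers summed to 70.7 to 76.3 CPM, 286 to 707 CPM and 237 to 242 CPM in the same order, and progenitor markers to 397 to 420 CPM, 1040 to 2685 CPM and 1769 to 1818 CPM. The DHPG inputs were thus the lowest of the 3 groups for each of these lists. These marker levels differ between the same groups as every gene list above and below, and their part in those changes was not tested. With the glial, progenitor, vascular and fibroblast marker genes and the mitochondrially encoded genes removed from scaling and test, which was chosen after seeing the data, 2259 genes rose and 2405 fell. Of the 12231 genes 12159 stayed in, so these totals could hardly change. The removal therefore cannot show what part cell content had in the other genes.

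**Figure D2:**
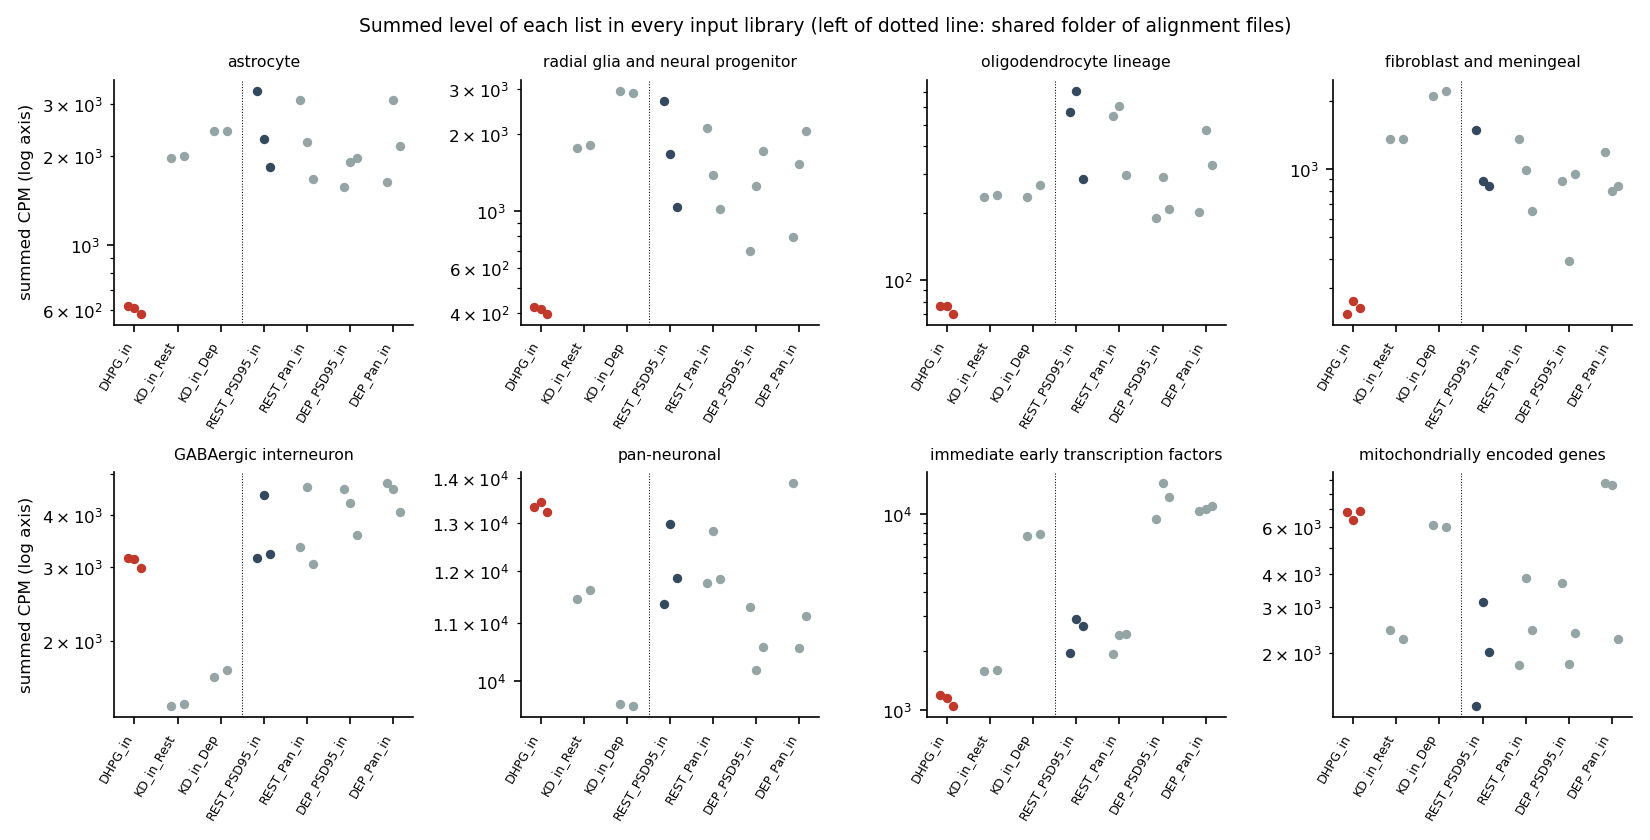
Summed CPM of 8 lists on log axes, 1 point per input library and 1 column per group, with the DHPG inputs in red, the resting PSD95 inputs dark and the other inputs grey; groups left of the dotted line share a folder of alignment files. For the astrocyte, progenitor, oligodendrocyte and fibroblast lists the DHPG inputs are the lowest of the 7 groups, and immediate early factors are highest after KCl.

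Neuronal markers did not move as 1 body. Of the 14 pan-neuronal markers, 3 rose, 2 fell and 9 were not called, with a median of -0.10. Stmn2, a tubulin-binding protein of growing axons, was at 1374, 1438 and 1479.9 CPM against 800.4, 645 and 616 CPM (1.06 ± 0.10, edgeR adjusted p = 7.31e-05). Elavl3, an RNA-binding protein of neurons, was at 325, 311 and 303 CPM against 398, 504 and 497 CPM and fell (-0.57 ± 0.10, edgeR adjusted p = 0.00174). Of 17 markers of excitatory cortical neurons, 8 rose and 3 fell. Lmo4, a transcriptional cofactor, was at 189, 179 and 177 CPM against 64.1, 75.6 and 58.7 CPM (1.46 ± 0.11, edgeR adjusted p = 2.08e-05), and Sla, a signalling adaptor, at 57.2, 54.9 and 57.6 CPM against 16.7, 13.0 and 9.11 CPM (2.07 ± 0.19, edgeR adjusted p = 5.62e-05). The 2 vesicular glutamate transporters went opposite ways, Slc17a6 by 1.02 ± 0.13 and Slc17a7 by -0.76 ± 0.09. Slc17a7, the form of mature cortical neurons, was at 163, 159 and 153 CPM against 285, 237 and 278 CPM (edgeR adjusted p = 0.000249). Against the knockdown resting inputs of the same folder its direction turned, to 1.54 (edgeR adjusted p = 9.9e-06).

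The core genes of GABA synthesis and transport were not called, with Gad1 at 0.04 ± 0.11, Gad2 at 0.06 ± 0.12 and Slc32a1 at -0.09 ± 0.15. Over 20 tested interneuron markers, 2 rose and 5 fell, with a median of 0.04. Without any 1 of the DHPG libraries 3 fell, where 1475 to 1527 of all genes tested did, against 2417 in the main fit. Sox6, a factor of interneurons from the medial ganglionic eminence, was at 14.5, 14.4 and 13.2 CPM against 39.1, 54.5 and 39.0 CPM (-1.65 ± 0.17, edgeR adjusted p = 0.000108). Calb2, a calcium-binding protein, was at 28.3, 29.1 and 30.0 CPM against 13.2, 16.7 and 9.36 CPM and rose (1.14 ± 0.20, edgeR adjusted p = 0.00166).

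Axon growth and immature neuron genes rose in 13 of 25 tested, fell in 3 and had a median change of 0.38. Collapsin response mediator genes were alike, with Dpysl5 at 2409, 2393 and 2317 CPM against 1139.7, 1124 and 1088 CPM (1.09 ± 0.07, edgeR adjusted p = 1.18e-05), Dpysl3 at 4517, 4524 and 4537 CPM against 2367, 2378 and 2086 CPM (0.99 ± 0.07, edgeR adjusted p = 2.16e-05) and Crmp1 at 2939, 2875 and 2798 CPM against 1450.4, 1553 and 1394 CPM (0.97 ± 0.07, edgeR adjusted p = 2.1e-05). Each was close to 2-fold higher in all DHPG libraries. Of the tubulin genes named here, Tubb3 was at 3729.6, 3748 and 3609.8 CPM against 2090.4, 1879.6 and 1488 CPM (1.02 ± 0.11, edgeR adjusted p = 0.000137), and Tuba1c, outside the list, at 5610.4, 5435 and 5445 CPM against 2361, 2013 and 1857 CPM (1.40 ± 0.09, edgeR adjusted p = 1.24e-05). Tubulin genes are near-identical over long stretches, so the split of reads between them is uncertain. Sox4, a factor of newborn neurons, fell (-1.04 ± 0.12).

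The following genes were among those with the smallest p. Some lost their call against the knockdown resting inputs described below, in the fit of 19 inputs. These were Tenm1 (0.64), Sqle (0.08), Ap2m1 (0.39), Fdps (0.43) and Aacs (0.61). Tenm2 (0.83) and Lingo1 (0.58) were still higher, as was Ackr3, and Pabpc1 (-1.31) was still lower. The genes named here that rose, Tenm2 apart, were also called higher in the knockdown resting inputs than in the resting PSD95 inputs. Tenm1 and Tenm2, teneurins that bind across synapses, rose and were at 608, 627 and 648 CPM against 208, 214 and 189 CPM (1.62 ± 0.08, edgeR adjusted p = 3.68e-06) and at 558, 565 and 558 CPM against 223, 249.7 and 222 CPM (1.27 ± 0.08, edgeR adjusted p = 1.18e-05). Tenm1 lies at chrX:42532465-43167754 on the minus strand of mm10. Lingo1, a coreceptor for myelin inhibitors, was at 337, 357 and 339 CPM against 149.9, 158 and 143 CPM (1.19 ± 0.08, edgeR adjusted p = 1.38e-05). Ackr3, a scavenging chemokine receptor, showed the largest difference of the 12 that rose with the smallest p, at 66.0, 70.3 and 64.3 CPM against 10.7, 6.02 and 6.83 CPM (3.01 ± 0.20, edgeR adjusted p = 1.33e-05). Ap2m1, a subunit of the clathrin adaptor that binds cargo in endocytosis, was at 325, 308 and 306 CPM against 138, 126 and 134 CPM (1.23 ± 0.08, edgeR adjusted p = 1.24e-05). Sqle, the squalene epoxidase, was at 439, 452 and 439.8 CPM against 189, 178 and 179 CPM (1.28 ± 0.07, edgeR adjusted p = 8.15e-06), Fdps, the farnesyl diphosphate synthase, at 249, 272 and 253 CPM against 104, 111 and 101 CPM (1.29 ± 0.08, edgeR adjusted p = 1.24e-05), and Aacs, which activates acetoacetate, at 498, 468 and 471 CPM against 191, 152 and 169 CPM (1.49 ± 0.10, edgeR adjusted p = 1.24e-05). Pabpc1, the cytoplasmic poly(A)-binding protein, was among those that fell, at 82.8, 84.5 and 92.6 CPM against 228, 258 and 249.8 CPM (-1.50 ± 0.09, edgeR adjusted p = 1.18e-05).

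Mitochondrially encoded genes rose in 13 of 13, with a median change of 1.67, or 3.18-fold. These mRNAs are translated by mitochondrial ribosomes, which cycloheximide does not stall. mt-Co3, a subunit of cytochrome oxidase, was at 717, 670.2 and 765 CPM against 100.3, 219.8 and 151 CPM (2.20 ± 0.26, edgeR adjusted p = 0.000703), and mt-Nd2, a subunit of complex I, at 375, 333 and 351 CPM against 59.6, 126 and 97.4 CPM (1.92 ± 0.24, edgeR adjusted p = 0.00064). Their share of all CDS counts was 0.618% to 0.671% in the DHPG inputs and 0.134% to 0.310% in the resting inputs. In the folder shared with DHPG it was 0.596% and 0.615% in the KCl inputs of the knockdown cultures and 0.226% and 0.244% in their resting inputs. The KCl inputs of the PSD95 construct, from the folders of the resting inputs, ran from 0.189% to 0.367%, and those of the Pan construct from 0.231% to 0.860%. Subunits of the same complexes encoded in the nucleus rose in 7 of 77 and fell in 16, where 18.6% and 19.8% of all genes did, with a median of -0.10. Without 1 of the DHPG libraries 7 to 9 were lower, where 1475 to 1527 of all genes tested were, against 2417 in the main fit. In the fit of 19 inputs 9 of 78 were lower, where 12.7% of all genes were. Cox8a, for example, was at 399, 393 and 349.5 CPM against 583, 829 and 616 CPM (-0.83 ± 0.13, edgeR adjusted p = 0.000914). Cytosolic ribosomal protein genes fell in 40 of 76 and rose in 2, with a median of -0.35. When 1 of the DHPG libraries was left out 20 to 24 were lower, where 1475 to 1527 of all genes tested were. In the fit of 19 inputs 19 of 78 were lower, where 12.7% of all genes were. Against the Pan resting inputs in that fit 10 of 78 were lower, which is near the 12% of all genes. Against the knockdown resting inputs 14 of 78 were lower, where 5.99% of all genes were, and none higher, with a median of -0.40. Rpl38 was at 86.9, 86.9 and 92.2 CPM against 197, 218 and 168 CPM (-1.13 ± 0.11, edgeR adjusted p = 6.35e-05). Replication-dependent histone genes fell in 40 of 66 and rose in 3, with a median of -0.66. Fewer were lower in the fit of 19 inputs, 24 against the same resting inputs (12.7% of all genes), 29 against the Pan resting inputs (12%) and 6 against the knockdown resting inputs, where 5.99% of all genes were lower. Ribosomal protein genes have many processed copies and histone genes are close to identical, so single members of both lists are uncertain.

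**Figure D3:**
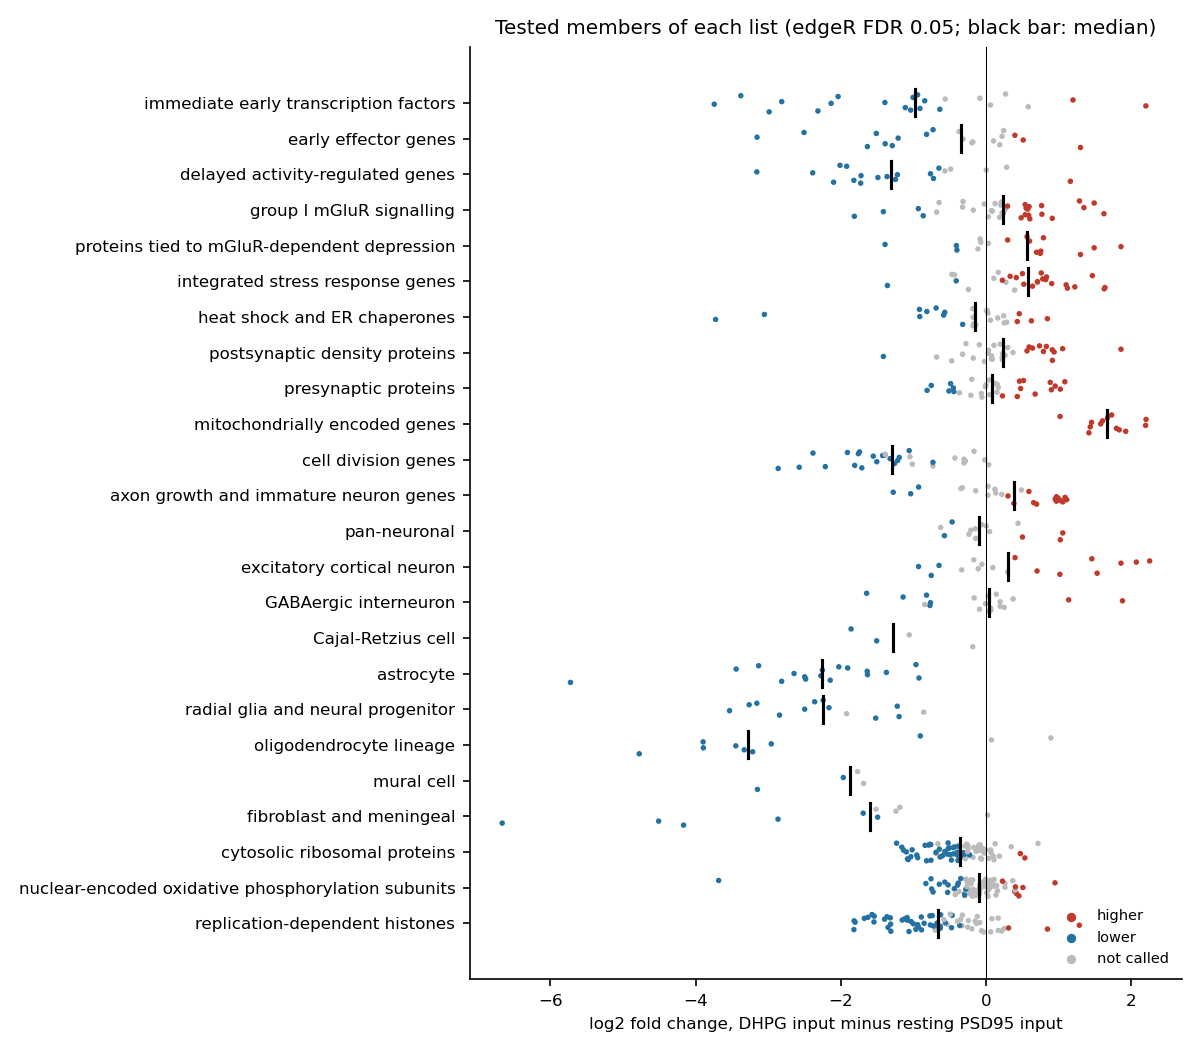
Log2 fold change, DHPG input minus resting PSD95 input, of every tested member of 24 lists, coloured by its call at an edgeR adjusted p of 0.05, with a black bar at each list's median. Astrocyte markers lie left of 0 and mitochondrially encoded genes right of 0 in every case, while pan-neuronal and GABAergic markers straddle 0.

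A reference from the same folder was given by 2 resting inputs of cultures whose eIF4G2 was knocked down for 72 h by siRNA at 20 nM, which carry the same construct but differ from the DHPG inputs by the knockdown as well as by DHPG and by the blockers, which their labels do not name. In the fit of 19 inputs, 480 genes (3.57%) were higher and 806 (5.99%) lower in the DHPG inputs than in these. The DHPG libraries stand in both comparisons, so the values are given side by side. Astrocyte markers were lower in 14 of 17, with a median of -2.21 against this reference and -2.28 against the resting PSD95 inputs in the same fit. Genes of cell division were lower in 25 of 30. Of these 30 genes, 5 were higher and none lower in the knockdown resting inputs than in the resting PSD95 inputs, with a median of 0.60. Among immediate early factors 7 of 24 were lower and 2 higher, with a median of -0.16. Npas4 (-3.47, edgeR adjusted p = 2.59e-10), Nr4a1 (-3.18, edgeR adjusted p = 0.000123) and Fos (-2.11, edgeR adjusted p = 0.000107) were still lower, whereas Junb (-0.02) and Egr1 (-0.45) were not called. Arc (1.42, edgeR adjusted p = 0.000946) and Egr3 (1.12, edgeR adjusted p = 0.00244) were higher. Early effector genes were lower in 5 of 20 and delayed genes in 5 of 20, and Bdnf was not called (-0.65). Group I mGluR signalling genes were higher in 2 of 36 and lower in 2, with Grm5 at 0.48, not called. Presynaptic genes were higher in 14 of 30, and chaperones lower in 1 of 27. In the knockdown resting inputs 12 presynaptic genes were lower and none higher than in the resting PSD95 inputs, with a median of -0.47. Of 18 microglial markers, 3 passed the filter in the 6 libraries and 13 in all 19, where their sum was highest in the knockdown inputs. Many may thus have entered the fit through that reference, so their calls against it are not counted here. Stress response genes were higher in 10 of 29, with a median of 0.55. Mitochondrially encoded genes were called higher in 3 of 13, with a median of 1.49. GABAergic markers, which were near 0 against the resting PSD95 inputs, were higher in 11 of 20 against this reference, with a median of 1.08.

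The knockdown resting inputs and the DHPG inputs were also each set against the resting PSD95 inputs, which both comparisons share. In the fit of 19 inputs, 8.69% of genes were higher and 12.7% lower in the DHPG inputs, and 4.44% were higher and 6.19% lower in the knockdown resting inputs. Delayed genes were lower in 14 of 20 in the DHPG inputs (median -1.34) and in 11 of 20 in the knockdown resting inputs (median -1.10). Immediate early factors were lower in 14 and 8 of 24, with medians of -1.01 and -0.69. Astrocyte markers were lower in 17 and 2 of 17, with medians of -2.28 and -0.09, and GABAergic markers in 5 and 14 of 20. Group I mGluR signalling genes were higher in 11 and 7 of 36 and lower in 4 and 3, with medians of 0.19 and 0.26. Axon growth genes were higher in 12 and 7 of 25 and lower in 2 and 2, with medians of 0.35 and 0.37. Depression proteins were higher in 7 and 3 of 17 and lower in 2 and 1, with medians of 0.53 and 0.31. Resting inputs of the Pan construct, which lacks the PSD95 part, served as a further reference. They lay in the same 3 folders as the resting PSD95 inputs, so treatment and experiment coincide there too. Against this reference 8.26% of genes were higher and 12% lower in the DHPG inputs. Immediate early factors were lower in 13 of 24 against it and delayed genes in 15 of 20, with medians of -0.94 and -1.46. Astrocyte markers were lower in 16 of 17 and mitochondrially encoded genes higher in 7 of 13, with medians of -2.09 and 1.44. Dlg4 was at a change of 1.49 against this reference, and the cell's own Dlg4 and the construct's copy cannot be told apart in these counts.

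**Figure D4:**
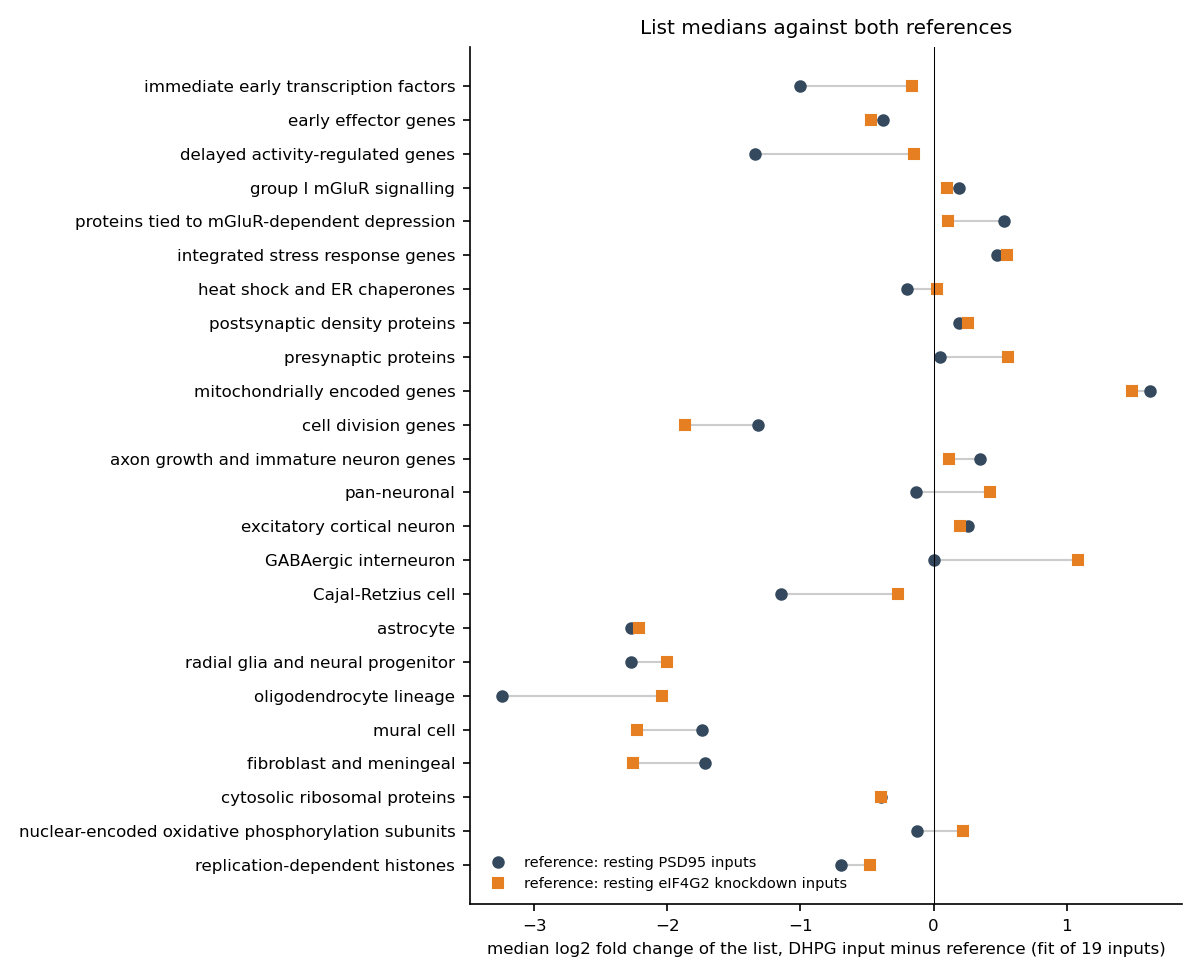
Median log2 fold change of 24 lists in the fit of 19 inputs, DHPG inputs minus resting PSD95 inputs (dark circles) and DHPG inputs minus resting eIF4G2 knockdown inputs (orange squares), joined by a grey line. The astrocyte and mitochondrial medians are close under both references, and those of immediate early and delayed genes are nearer 0 under the knockdown reference.

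Footprints were also divided by transcript region. The 5′ UTR held 16.4%, 15.4% and 15.3% of footprints in the DHPG inputs and 16.4%, 22.1% and 20.2% in the resting inputs, so the groups overlapped. The mean difference was -3.83 percentage points (exact permutation test, two-sided, p = 0.2; the smallest p that 3 against 3 allows is 0.1, and 3 regions were tested, each with a Benjamini-Hochberg adjusted p of 0.2). The CDS share was 82.0% ± 0.651 (SD, n = 3) after DHPG and 78.8% ± 2.92 at rest (exact permutation p = 0.2). The 3′ UTR held 2.27%, 2.16% and 2.24% in the DHPG inputs and 1.64%, 1.57% and 1.73% in the resting inputs. These groups did not overlap, and the exact permutation p was the smallest possible, 0.1.

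**Figure D5:**
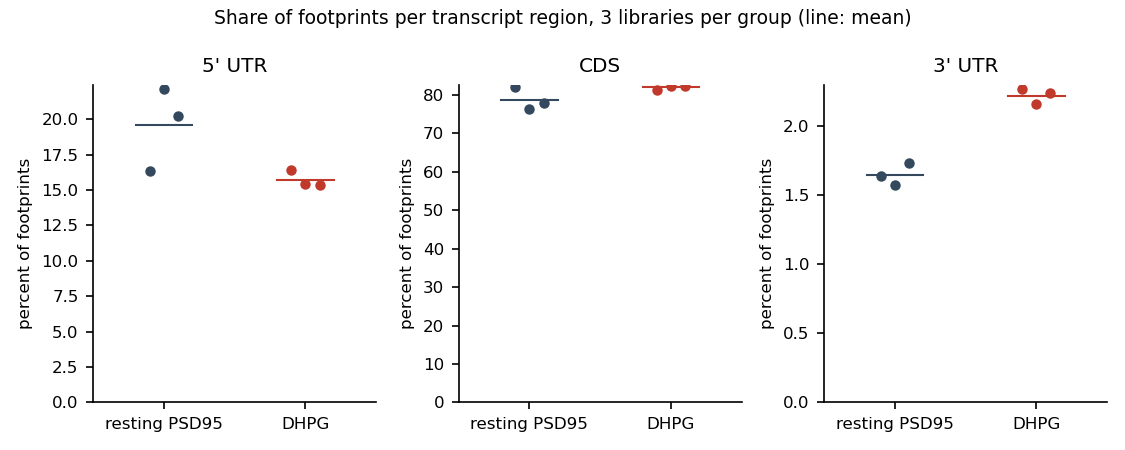
Percent of footprints by transcript region (5′ UTR, coding sequence, 3′ UTR), with 1 point per library, a line at each mean and axes from 0. The 5′ UTR shares of the groups overlap through resting replicate 1, and the 3′ UTR shares of the DHPG inputs lie above those of the resting inputs.

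Counts in the 5′ UTR of single genes, scaled with the CDS library sizes, were tested for 9172 genes, of which 319 rose (3.48%) and 2216 fell (24.2%). With their own library sizes, which take out the difference in the overall share, 1197 rose and 1209 fell, so the split between directions rests on the scaling. Without 1 of the DHPG libraries 156 to 182 rose, and without resting replicate 1, whose 5′ UTR share was the lowest of its group, 4046 fell. Rprml and Gse1 were the 2 genes that rose with the smallest p. Rprml was at 43.0, 40.3 and 44.0 CPM in its 5′ UTR after DHPG and at 5.90, 11.3 and 9.36 CPM at rest, a change of 2.30 ± 0.29 (edgeR adjusted p = 6.16e-07), next to 2.27 over its CDS. Gse1 was at 32.9, 34.8 and 33.8 CPM against 6.19, 1.88 and 8.10 CPM, a change of 2.65 ± 0.33 (edgeR adjusted p = 8.21e-07), next to 1.80 over its CDS. Those that fell with the smallest p were Olig1, with a 5′ UTR change of -4.36 ± 0.35 (edgeR adjusted p = 9.22e-10), and Olig2, with -5.43 ± 0.46 (edgeR adjusted p = 5.34e-09), which both fell over the CDS too.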

How the data were processed

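Ribosome footprints of 38 samples were deposited by the authors, of which 6 enter the main comparison and 19, all inputs, the fit used for reference. As the authors describe it, reads were trimmed, demultiplexed, aligned to mm10 with Rsubread and cleared of rRNA and duplicates. The deposited values are whole counts per transcript segment from plastid (reads of 25 to 100 nt per the file headers), not normalized. Here, CDS counts were summed over the longest transcript of each of 22478 genes, with symbols from GENCODE M21 for 99.3% of coding transcripts. Counts passing filterByExpr were tested in R 4.3.3 with edgeR 4.0.16 (TMM scaling, robust quasi-likelihood F test, Benjamini-Hochberg), and limma 3.58.1 and DESeq2 1.42.0 served as alternatives. Groups came from sample titles. On simulated counts for 12231 genes, 35 of 47 genes lowered by 1 on the log2 scale and 36 of 50 raised by 1 were recovered. The simulation left 11901 tested genes unchanged and gave both groups the same spread. In the data 38.4% of genes were called and the resting inputs varied more, so these rates may not hold there. Genes were named as the 12 with the smallest p in each direction, the 3 with the smallest p in each list, a preset set, and 2 per direction for the 5′ UTR. The 12 were taken from called genes whose groups did not overlap, so for them separation of the groups was a condition of the choice. Other members are named to describe their list. Members, lists and tests were chosen with earlier results of these data known. Shared counts between near-identical genes were not resolved. Some members of the lists are counted but not reported by name here.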

Additional observations from a re-analysis of the deposited data

How the results depend on the processing

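No alternative scaling, test, filter or transcript choice run within the 6 libraries reversed a named gene that was called in either fit. Over all settings named genes kept their call without such a reversal in 2264 cases, lost it in 82, gained it in 6 and reversed in 13. The 2264 include genes called in neither fit whose direction turned, such as Dlg4 (-0.17 to 0.14 with 1 library left out). Genes higher and lower numbered 1170 and 1716 in the fit of 19 inputs, 1112 and 1622 against the resting inputs of the Pan construct, 480 and 806 against the resting knockdown inputs, and 441 and 664 in a test against a fold of 1.5. Of the genes called higher and lower in the main fit, 50.9% and 68.3% were called likewise in the fit of 19 inputs. These shares were 45.4% and 59.5% against Pan, and 10.4% and 23% against the knockdown inputs. Leaving out 1 library gave 1432 to 2609 higher and 1475 to 2718 lower; the low ends were without DHPG replicate 2 (1432 and 1475), with 1460 and 1498 without replicate 1 and 1474 and 1527 without replicate 3. Both group weights in limma (2353 and 2533) and scaling and test without glial, vascular and mitochondrial genes (2259 and 2405) were chosen after seeing the data.

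Replicate numbers are shared by the groups, but same-numbered libraries correlated at -0.11, -0.0456 and -0.0145 in their deviations, so they share only a number. With the replicate block, 2138 genes were higher and 2177 lower.

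Group I mGluR signalling members higher numbered 11 in the fit of 19, 8 against Pan, 2 against knockdown and 11 to 19 with 1 library left out. Against Pan, depression proteins higher numbered 5, stress response genes 10 and mitochondrial genes 7. Against knockdown, 3.57% of all genes were higher and 5.99% lower. Depression proteins were higher in 3 and lower in 3 of 17, and axon growth genes in 4 and 4 of 25. Stress response genes were higher in 10 and lower in 1 of 29, excitatory markers in 4 and 1 of 17, and mitochondrial genes in 3 and 0 of 13. Immediate early genes were lower in 7 and higher in 2 of 24, delayed genes in 5 and 2 of 20, and GABAergic markers in 0 and 11 of 20. Radial glia markers were lower in 6 of 13 and oligodendrocyte markers in 4 of 13, with 0 higher. GABAergic members lower ran from 3 to 6 with 1 library left out. Medians reversed for GABAergic markers against Pan (-0.0648), and ran from -0.0936 (without resting replicate 3) to 0.163 (without resting replicate 2) with 1 library left out, also below 0 without resting replicate 1 (-0.05). They also reversed for pan-neuronal markers (0.42 against knockdown, 0.00366 without resting replicate 2), chaperones (0.0260) and nuclear oxidative phosphorylation (0.22), both against knockdown. The cause was not tested.

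Eif4g2, at -0.24, lost its call with no filter (-0.22), in the fit of 19 (-0.27), with the length trend removed (-0.20), with the replicate block (-0.24), against Pan (-0.31), in the fold test (-0.24) and without each DHPG replicate (-0.27 to -0.23 over all leave-one-out fits), and was 0.71 against its own knockdown. Dlg4 was 1.49 against Pan, whose construct differs. Against knockdown, changes reversed for Tuba1c (-0.16), Chgb (0.19), Prkcb (-0.0295), Cyfip2 (-0.0103), Slc17a7 (1.54), Crmp1 (-0.0302), Tubb3 (-0.18), Sox6 (0.10), Ndnf (0.30), Cox8a (0.0482) and Ndufb7 (0.0762).

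In the 5′ UTR, own library sizes gave 1197 higher and 1209 lower, and leaving out 1 library 156 to 447 higher and 1329 to 4046 lower, the last without resting replicate 1. Depth limits low genes, and treatment and experiment cannot be told apart under any setting.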

Other observations

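Enzymes of cholesterol synthesis were listed after Sqle and Fdps had been seen among the genes with the smallest p, so the following is a description of a list chosen for its values. Of 21 enzymes, 19 rose in the DHPG inputs, none fell and 2, Lbr and Hsd17b7, were not called, with a median change of 0.89. Among the early steps, Hmgcs1, the HMG-CoA synthase, changed by 1.27 ± 0.10 on the log2 scale. Among the late steps, Nsdhl changed by 1.35 ± 0.10 and Dhcr7 by 0.93 ± 0.09. Against the resting eIF4G2 knockdown inputs, in the fit of 19 inputs, 5 of the 21 were higher and 1 lower, with a median of 0.43. After KCl, against the same resting PSD95 inputs, 5 were higher and none lower, with a median of 0.35.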
